A study of Mus musculus with 23 samples.

Results

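DC1b cells were compared with DC1a cells from the spleens of untreated wild type BALB/c mice, with 2 libraries of each population, which are 4 of the 23 libraries of the series. They were chosen by their labels alone. DC1a is the population labelled CD8hi CD172- and DC1b the one labelled CD8Int CD172+, both sorted from the same 2 pools of mice, so that pool 1 and pool 2 each gave a library of either population. The study's gate held cells positive for CD11c and MHC class II and left out cells stained for lineage markers, among them CD3, B220, CD56 and Gr-1. Untreated DC2 cells (CD8lo CD172hi) of the same 2 pools are shown beside them, and 8 libraries of DC1a and DC1b cells from 4 pools of BALB/c mice labelled TLI, an abbreviation the labels do not expand, give the same comparison in other animals. The labels give neither the number of mice in a pool nor their age. Values are estimated read counts per gene, printed as CPM, a gene's share of the counts of its library, scaled by TMM, a correction for differences in composition between libraries. Where 2 values are given for a population, the first is from pool 1 and the second from pool 2. CPM is not divided by gene length, so levels of different genes are not compared.

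Spleen dendritic cells take up antigen and present it to T cells. Conventional type 1 cells (cDC1) depend on the transcription factors BATF3 and IRF8 and, with ID2, keep the chemokine receptor XCR1 and the dead-cell receptor CLEC9A. Conventional type 2 cells (cDC2) carry SIRPA, the protein stained as CD172a. Plasmacytoid dendritic cells make type I interferon and depend on TCF4, an E protein that binds DNA at short E-box sequences and whose partners ID2 can sequester. They also use SPIB and RUNX2, and carry Siglec-H and Ly6C.

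Of 15785 genes tested, 160 passed an adjusted p of 0.05, which is 1.01% of them. DC1b cells were higher in 128 (0.811%) and lower in 32 (0.203%). The rest of the account looks past the genes at the floor, taken as 3 counts in a library. Of the 160 genes, 15 had no library of 1 of the populations above that floor. A further condition of more than 3 counts in each of the 4 libraries and a mean of at least 20 CPM left 137 genes, 106 higher and 31 lower. Among these the higher genes had a median log2 fold change of 3.53 (1.13 to 9.06) and the lower genes a median of -2.19 (-5.98 to -1.34). A gene could reach the mean of 20 CPM through 1 population alone. The 4 libraries held between 21238676 and 28688091 counts. These calls rest on the spread estimated from the 6 libraries of DC1a, DC1b and DC2 together. With the pool as a replicate block, with only the 4 DC1a and DC1b libraries, or without any 1 of these 4, 0 genes passed, while 2224, 3025 and between 1495 and 2317 genes had an unadjusted p under 0.05, against 2691 as reported. DESeq2 called 1879. The labels do not say that the pools were sorted on separate days, and p-values measure the spread between these pools.

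**Figure D1:**
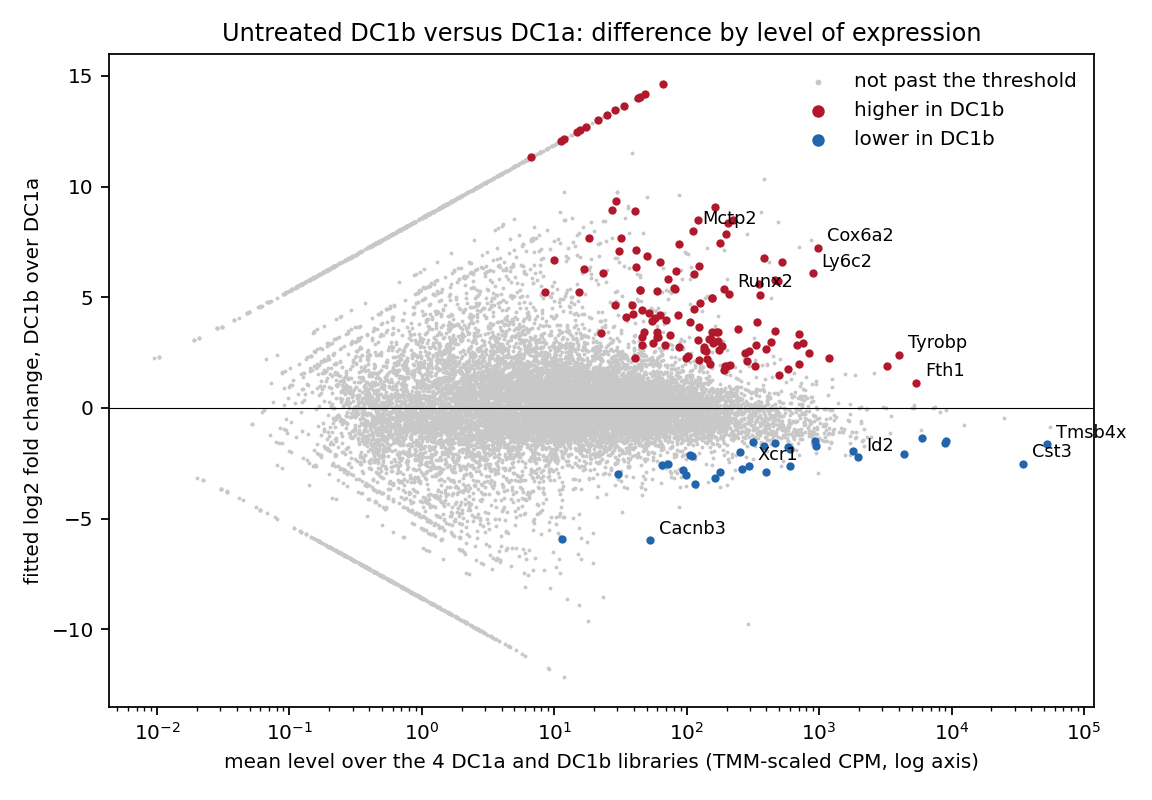
Fitted log2 fold change of DC1b over DC1a (vertical axis) against the mean level over the 4 libraries (horizontal axis, CPM on a log scale) for the genes tested, with the 128 called higher in red and the 32 called lower in blue. The straight lines of points at the left are genes with 0 counts in a population, whose fitted value is not a measure of size. Called genes reach the right edge, where Cst3 and Tmsb4x lie.

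Calls were commoner among genes of higher level. Of 5931 genes with a mean under 5 CPM over the 4 libraries 0 were called, of 6911 from 5 to 50 CPM 40 were, of 2656 from 50 to 500 CPM 93 were, and of 287 genes from 500 CPM upward 27 were, or 9.41%. In the top class 14 of the calls were higher and 13 lower in DC1b, while from 5 to 50 CPM 38 were higher and 2 lower. The power to call a gene rises with its count, so these shares do not measure how many genes differ at each level.

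In all 160 called genes the 2 libraries of DC1b lay on the same side of both DC1a libraries, which a test on 2 libraries each largely requires of the genes it calls. Over all genes tested both DC1b libraries were above both DC1a libraries in 25.9% and below them in 26.6%. Over the 137 well expressed ones, the log2 ratio of DC1b to DC1a within a pool differed by less than 1 between pool 1 and pool 2 in 113. The gap was widest for Igkv1-110, a kappa light chain variable segment with 0.806 and 0.403 CPM in DC1a and 144 and 508 CPM in DC1b, a gap of 2.74 on the log2 scale. Reads of such segments can be shared with close relatives, so its level is uncertain.

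**Figure D2:**
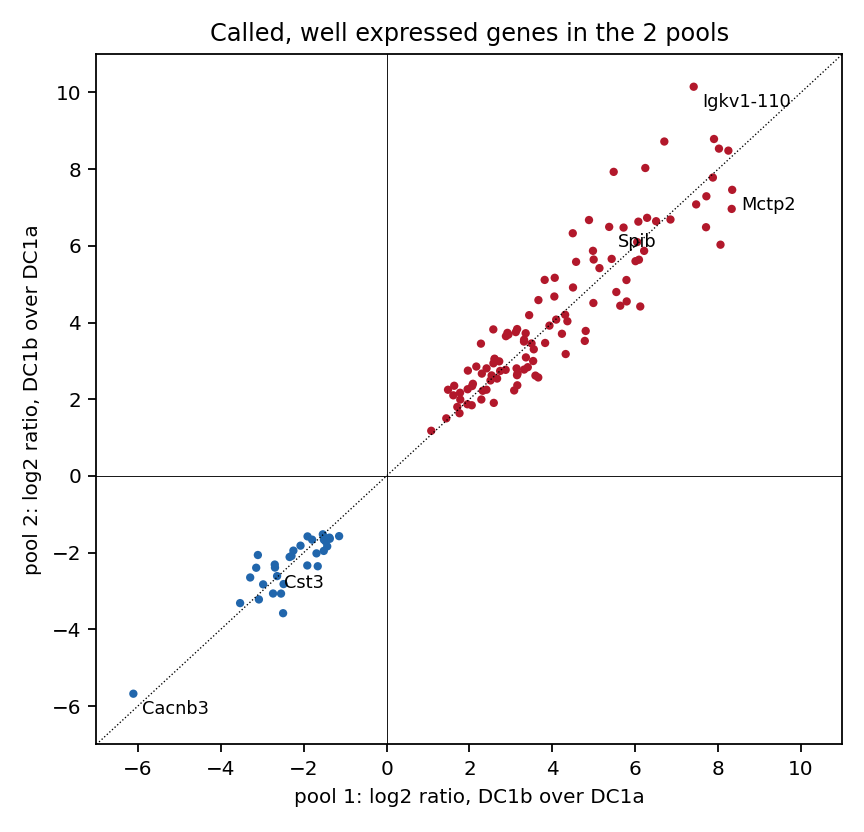
Log2 ratio of DC1b to DC1a (CPM plus the CPM of 1 count) within pool 1 (horizontal axis) and within pool 2 (vertical axis) for the 137 called genes with more than 3 counts in each library and a mean of at least 20 CPM. Red points were called higher in DC1b and blue points lower. The points lie near the dotted line of equality, and Igkv1-110 is the farthest from it.

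The genes of the sort itself were looked at first. Sirpa, which encodes CD172a, had 0.201 and 0.313 CPM in the DC1a libraries of pool 1 and pool 2 and 12 and 86.4 CPM in the DC1b libraries, against 244 and 181 CPM in DC2 cells. DC1b was thus above DC1a in both pools and below DC2, and the 2 pools of DC1b differed widely (log2 fold change 7.56 ± 1.20 SE, adjusted p = 0.0667). Cd8a was at 541 and 522 CPM in DC1a, 136 and 370.3 CPM in DC1b and 0.59 and 0.385 CPM in DC2, lower in DC1b in both pools without passing the test (adjusted p = 0.356). Cd8b1, the beta chain partner of CD8 alpha, stood the other way, at 0.322 and 3.44 CPM in DC1a and 196 and 373 CPM in DC1b (adjusted p = 0.0987). Itgax, the CD11c gene, had 186 and 162 CPM in DC1a and 67.8 and 89 CPM in DC1b (adjusted p = 0.108). Sirpa and Cd8a thus lay on the side that the labels give in both pools, but none of these 4 genes was past the threshold.

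A list of plasmacytoid DC genes held 33 members, and all were tested. Of these, 9 were called and all 9 were higher in DC1b, beside 0.811% of all genes. The list's median log2 fold change was 4.95, against 0.08 over all genes tested, and 30 of the 33 values were positive. This list and those below were chosen with earlier results of these data known, so such counts describe them and test nothing. Both DC1b libraries were above both DC1a libraries for 29 of the 33, beside 25.9% of all genes. Summed over the list, DC1a libraries had 449.7 and 634 CPM, DC1b libraries 11021 and 15629 CPM and DC2 libraries 1039 and 914 CPM.

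Tcf4 had 18 and 22.9 CPM in DC1a pool 1 and pool 2 and 899.6 and 497 CPM in DC1b, a 34.2-fold difference of the means (adjusted p = 0.0256). DC2 cells, at 38.2 and 38.5 CPM, lay between the populations, nearer to DC1a. Spib, an ETS factor, rose from 3.3 and 3.35 CPM to 138 and 306 CPM (66.8-fold, log2 fold change 6.06 ± 0.55 SE, adjusted p = 0.0256). It was under 1 CPM in both DC2 libraries. Runx2 rose from 6.61 and 16.1 CPM to 463 and 345 CPM (35.6-fold, adjusted p = 0.0331) and had 39.9 and 28.9 CPM in DC2. Bcl11a, another factor of the plasmacytoid DC list, had 52.5 and 46.1 CPM in DC1a and 157 and 204 CPM in DC1b. It did not pass (adjusted p = 0.153).

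Among genes of this list for other functions, Cox6a2, a subunit of cytochrome c oxidase (chromosome 7, 128205435 to 128206387 on GRCm38), had 8.38 and 17.6 CPM in DC1a and 1494 and 2393 CPM in DC1b, 149-fold higher (adjusted p = 0.0256). Its exons overlap those of Itgad over 10.3% of their length, and no source used here says whether strand was used in counting. Ly6c2, one of the 2 genes behind the Ly6C stain (chromosome 15, 75108158 to 75111970 on GRCm38), had 19.6 and 32.5 CPM in DC1a and 1298 and 2229 CPM in DC1b, 67.8-fold higher (adjusted p = 0.0256). DC2 cells had 18.9 and 19.8 CPM, at or under the DC1a values. The near copy Ly6c1 moved with it, from 9.26 and 12.2 CPM to 845 and 1225 CPM, and reads may be split between the pair. Mctp2, a membrane protein with C2 domains (chromosome 7, 72077830 to 72306608 on GRCm38), had under 1 CPM in either DC1a library and 274 and 173 CPM in DC1b (256-fold, adjusted p = 0.0256), with 0 counts in both DC2 libraries.

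Cd300c rose from 7.41 and 9.35 CPM to 140.0 and 123 CPM (15.7-fold). Lair1, an inhibitory collagen receptor, rose from 1.05 and 3.0 CPM to 229 and 477 CPM (175-fold), and DC2 cells had 108 and 70.1 CPM. Cybb, the catalytic subunit of the phagocyte NADPH oxidase, rose from 3.02 and 10.9 CPM to 816 and 716 CPM (110.0-fold), and here DC2 cells were high as well, at 405 and 348 CPM. Siglech and Klk1 had large differences without passing. Siglech had 5.64 and 12.3 CPM in DC1a and 1017 and 1764 CPM in DC1b (log2 fold change 7.27 ± 1.32 SE, adjusted p = 0.0911), and Klk1 had 1.17 and 16.8 CPM and 1069 and 2404 CPM (adjusted p = 0.101). Irf7 and Tlr9, which serve interferon production, were at 67.2 and 96.4 CPM and at 4.75 and 4.74 CPM in DC1b and did not pass (adjusted p = 0.251 and 0.569). Scaled over all 23 libraries, Irf7 had 26.7 and 38.7 CPM in DC1a and 64.9 and 90.4 CPM in DC1b. On that scale Tlr9 had 0.407 and 0.903 CPM in DC1a and 4.58 and 4.45 CPM in DC1b. Both genes were thus higher in DC1b in both pools.

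**Figure D3:**
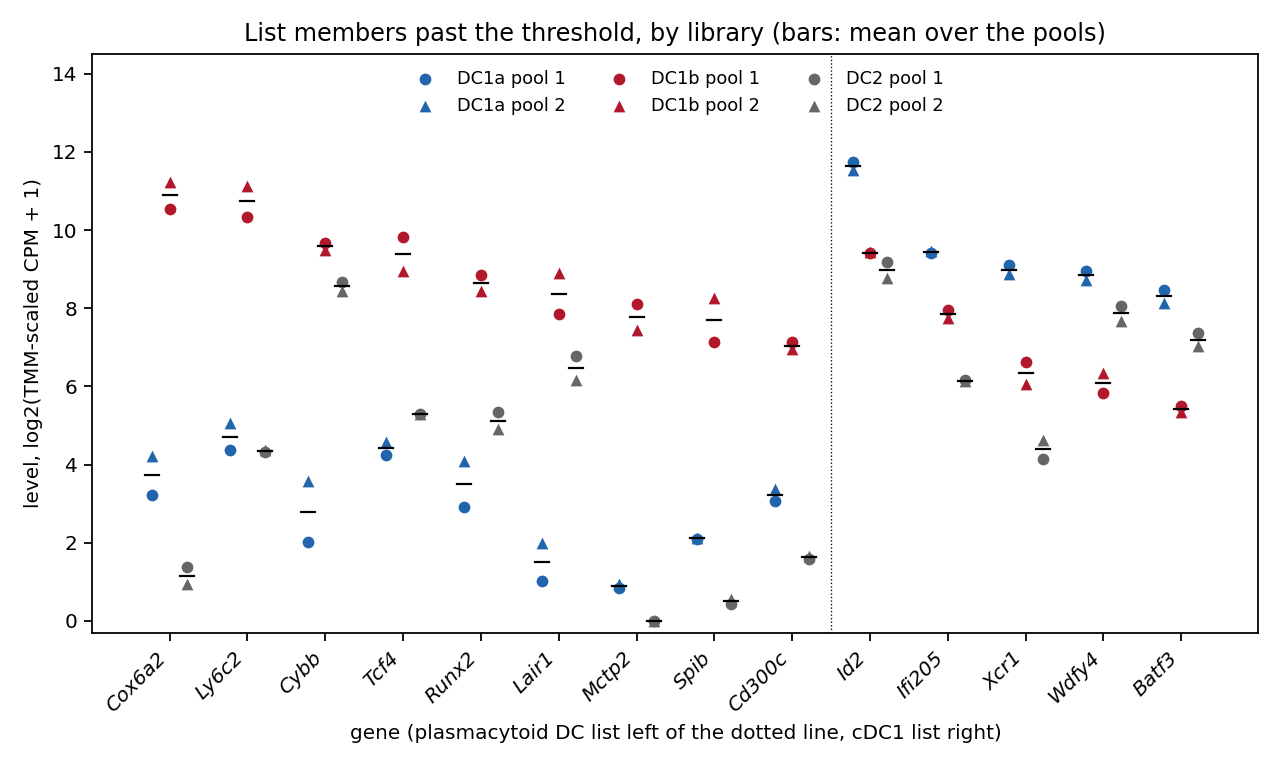
Level of the called members of the plasmacytoid DC list (left of the dotted line) and of the cDC1 list (right), as log2(CPM + 1), in each library of untreated DC1a (blue), DC1b (red) and DC2 (grey) cells. Circles are pool 1, triangles pool 2 and bars the mean of the 2 log2 values. On the left both DC1b libraries lie above both DC1a libraries for all 9 genes. On the right they lie below them for all 5. The test largely requires this of the genes it calls.

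Genes of the cDC1 list lay on the other side. All 30 were tested, 5 were called and all 5 were lower in DC1b, beside 0.203% of all genes. The median log2 fold change was -2.09, with 27 of 30 values negative, and both DC1b libraries were below both DC1a libraries for 25 of the 30, beside 26.6% of all genes. Summed over the list, DC1a libraries had 14228 and 13494 CPM, DC1b libraries 4167 and 4672 CPM and DC2 libraries 2019 and 2016 CPM. In a bulk library, fewer cells of a type and less of its RNA per cell cannot be told apart, and this holds for both lists.

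Xcr1, the receptor for the chemokine XCL1 (chromosome 9, 123852315 to 123862029 on GRCm38), fell from 549 and 465 CPM in DC1a to 98.1 and 65.9 CPM in DC1b, 6.19-fold lower (log2 fold change -2.63 ± 0.33 SE, adjusted p = 0.0432), while DC2 cells had 16.8 and 23.9 CPM. Batf3 (chromosome 1, 191097847 to 191108945 on GRCm38) fell from 351 and 282 CPM to 44.6 and 39.7 CPM, 7.52-fold lower (adjusted p = 0.0262). DC2 cells had 163 and 129 CPM, so DC1b cells were the lowest of the 3 populations. Id2 (chromosome 12, 25093799 to 25097140 on GRCm38) fell from 3450.1 and 2991 CPM to 682 and 691 CPM, 4.69-fold lower (adjusted p = 0.027), and DC2 cells had 584 and 437 CPM. Wdfy4, which is needed for cross-presentation of cell-associated antigen, fell from 492 and 423 CPM to 55.6 and 80.5 CPM (adjusted p = 0.0326), with 264 and 205 CPM in DC2. Ifi205 fell from 682 and 706 CPM to 247 and 216 CPM (adjusted p = 0.0423).

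Irf8 was not lower in DC1b. It had 664 and 548 CPM in DC1a and 946 and 831 CPM in DC1b (log2 fold change 0.55 ± 1.14 SE, adjusted p = 0.876), against 1.57 and 32.8 CPM in DC2. Clec9a had 671 and 629.8 CPM in DC1a and 221 and 199 CPM in DC1b (adjusted p = 0.0632), and Cadm1 had 186 and 206 CPM and 193 and 279 CPM (adjusted p = 0.939). Both populations thus held transcripts that DC2 cells had at 1.02 and 1.54 CPM (Clec9a) and 41.5 and 3.18 CPM (Cadm1).

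Because TCF4 binds E-boxes and ID2 counters it, the 250 bases before the RefSeq start of the called members of both lists were searched for the E-boxes CACCTG, on either strand, and CAGCTG, which reads the same on both. Other forms of the E-box were not searched, and E-box below means only these 2. Tcf4 was not searched, and no window was at hand for Cox6a2. Of the called plasmacytoid DC genes, 3 of 7 genes, or 4 of 8 windows, held an E-box (Ly6c2, Cd300c and Mctp2). Of the 5 called cDC1 genes, 1 did (Id2). Among windows of all genes tested, 25.1% of 12644 held one, and 32.6% of the 138 windows of genes called higher and 32.4% of the 37 of genes called lower did. Counted by gene, 2847 of 9969 genes tested held an E-box in a window, as did 35 of 100 called higher and 10 of 26 called lower. A match is not evidence of binding. Printed below are windows of 2 higher genes with a searched E-box, and of 1 higher and 1 lower gene without either searched form. They are from RefSeq sequence of GRCm38, and none overlaps an annotated exon. Each is in the direction of the gene, with the searched E-box in capitals.
Ly6c2, chr15:75111972-75112221, minus strand: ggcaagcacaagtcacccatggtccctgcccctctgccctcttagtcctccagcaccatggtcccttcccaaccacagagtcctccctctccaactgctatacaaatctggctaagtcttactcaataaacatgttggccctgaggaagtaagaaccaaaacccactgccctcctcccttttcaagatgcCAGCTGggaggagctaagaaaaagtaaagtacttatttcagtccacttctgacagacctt
Cd300c, chr11:114960508-114960757, minus strand: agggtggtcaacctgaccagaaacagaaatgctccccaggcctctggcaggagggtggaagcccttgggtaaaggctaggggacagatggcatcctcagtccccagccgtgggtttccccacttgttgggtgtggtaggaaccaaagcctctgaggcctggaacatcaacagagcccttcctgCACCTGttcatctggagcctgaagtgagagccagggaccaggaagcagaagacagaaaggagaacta
Spib, chr7:44532072-44532321, minus strand: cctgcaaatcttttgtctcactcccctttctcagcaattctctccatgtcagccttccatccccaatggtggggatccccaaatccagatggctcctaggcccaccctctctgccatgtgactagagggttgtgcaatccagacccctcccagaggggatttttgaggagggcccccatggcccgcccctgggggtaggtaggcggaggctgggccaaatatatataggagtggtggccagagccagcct
Xcr1, chr9:123862030-123862279, minus strand: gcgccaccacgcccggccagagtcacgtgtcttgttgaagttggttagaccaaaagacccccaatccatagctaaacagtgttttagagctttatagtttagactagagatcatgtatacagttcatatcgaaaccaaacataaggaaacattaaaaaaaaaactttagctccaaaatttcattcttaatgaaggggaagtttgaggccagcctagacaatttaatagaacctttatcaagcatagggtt
The E-box of the Ly6c2 window starts 60 bases before the start of the gene and that of the Cd300c window 67 bases before it. Neither the Spib nor the Xcr1 window held either of the forms searched, and other E-box forms were not counted.

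Beyond the lists, the 12 largest increases among the well expressed genes ran from Rgl1 (log2 fold change 7.11) to Igkv1-110 (9.06). They fell into genes that DC2 cells lacked and genes that DC2 cells also had. Blnk, an adaptor of B-cell receptor signalling (chromosome 19, 40928927 to 40994535 on GRCm38), had 1.41 and 2.01 CPM in DC1a, 340.3 and 453 CPM in DC1b and 0.63 and 0.144 CPM in DC2 (232-fold over DC1a, adjusted p = 0.0256). Cmah, which makes N-glycolylneuraminic acid, had 1.69 and 0.358 CPM, 180.4 and 169.8 CPM and 0.157 and 0.241 CPM in the same order (171-fold, adjusted p = 0.0395). The noncoding gene A530030E21Rik had 0.403 and 0.76 CPM, 92.7 and 72.1 CPM and 0.118 and 0.144 CPM. For these 3 genes both DC1b libraries stood far above the other 4. Gm21762 and D13Ertd608e both lie on chromosome 13 and had nearly parallel values, 293 and 531 CPM and 299 and 593 CPM in DC1b against 1.09 and 1.39 CPM and 1.21 and 1.3 CPM in DC1a, so they may share reads.

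Ms4a6d, a tetraspan gene of myeloid cells, had 0.161 and 0.447 CPM in DC1a, 64.7 and 61.4 CPM in DC1b and 181 and 227 CPM in DC2 (adjusted p = 0.0256). Rgl1, an exchange factor for Ral GTPases, had 0.645 and 0.224 CPM, 51.9 and 70.1 CPM and 93 and 66.9 CPM. In both genes DC2 cells were at least near DC1b. Tmem108 rose from 0.564 and 0.805 CPM to 184 and 304 CPM and had 5.04 and 27.6 CPM in DC2, with 15.6% of its exons shared with another gene. Cox6a2, Lair1 and Mctp2, described above, complete the 12.

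The 12 largest decreases were smaller. Cacnb3, Ckb, 2310031A07Rik and Ppfibp2 led them, and Batf3, Wdfy4 and Xcr1 are among them. Rala, a Ral GTPase of vesicle transport (chromosome 13, 17880571 to 17944239 on GRCm38), fell from 712 and 688 CPM to 107 and 82.1 CPM, 7.42-fold lower (log2 fold change -2.89 ± 0.23 SE, adjusted p = 0.0256). Aph1c, a subunit of gamma-secretase, fell from 143 and 186 CPM to 24.5 and 22.2 CPM, and Abcg3, an ABC transporter, from 132 and 90.5 CPM to 15.3 and 21.6 CPM, with 337 and 263 CPM in DC2. The noncoding gene 9530059O14Rik fell from 59.7 and 47.1 CPM to 6.07 and 7.48 CPM. In each of these genes both DC1b libraries lay below both DC1a libraries, as they did in every gene called lower.

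Some of the most abundant transcripts of the cells were among the calls. Cst3, the protease inhibitor cystatin C (chromosome 2, 148871722 to 148875692 on GRCm38), fell from 57682 and 60585 CPM in DC1a to 8928 and 11559 CPM in DC1b, 5.77-fold lower (log2 fold change -2.53 ± 0.20 SE, adjusted p = 0.0256). DC2 cells had 4104 and 3279 CPM. Tmsb4x, the actin-binding thymosin beta 4 (chromosome X, 167207093 to 167209315 on GRCm38), fell from 69062 and 89338 CPM to 25605 and 25006 CPM, 3.13-fold lower (adjusted p = 0.027), and DC2 cells had nearly the DC1b level, 26014 and 25458 CPM. Its relative Tmsb10 fell from 1113 and 957 CPM to 178 and 157 CPM. Cd52, a small surface glycoprotein, fell from 7259 and 6895 CPM to 1528 and 1787 CPM.

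The 2 subunits of ferritin went opposite ways. Ftl1, the light chain, fell from 14509 and 12327 CPM to 5091 and 3887 CPM (adjusted p = 0.0431), and Fth1, the heavy chain, rose from 3477 and 3332 CPM to 7346 and 7537 CPM (adjusted p = 0.0432). Both have processed copies in the genome that can share reads, and 26.5% of the exons of Ftl1 overlap Gm10252, so their levels are uncertain. Tyrobp, the signalling adaptor DAP12 (chromosome 7, 30413760 to 30417585 on GRCm38), rose from 1322 and 1248 CPM to 5153 and 8377 CPM, 5.26-fold (adjusted p = 0.0395), with 2919 and 2372 CPM in DC2. Fcer1g, the other adaptor of this kind and the gamma chain of Fc receptors, rose from 136 and 116 CPM to 1027 and 1542 CPM (adjusted p = 0.0256). Plac8 rose from 1426 and 1316 CPM to 3989 and 6249 CPM, while DC2 cells had 1649 and 1807 CPM.

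Genes of MHC class II presentation gave 3 calls among 16 tested, 1 higher and 2 lower, beside 0.811% higher and 0.203% lower over all genes. H2-Ab1, the beta chain of I-A (chromosome 17, 34257689 to 34269419 on GRCm38), fell from 14043 and 12681 CPM to 5436 and 4073 CPM, 2.81-fold lower (adjusted p = 0.0432), and H2-Eb1 fell from 8402 and 8795 CPM to 3801 and 2962 CPM (adjusted p = 0.0449). DC2 cells had 9407 and 9984 CPM (H2-Ab1) and 8661 and 9106 CPM (H2-Eb1). The alpha chain H2-Aa had 16284 and 14966 CPM in DC1a and 6449 and 11644 CPM in DC1b and did not pass (adjusted p = 0.255), nor did the invariant chain Cd74, at 29527 and 27939.5 CPM and 16116 and 25622 CPM (adjusted p = 0.401). The median of the list was -0.50. Its higher member was Ctsl, the endosomal protease cathepsin L, which rose from 21.6 and 11.7 CPM to 640.5 and 1196 CPM, 55.1-fold (adjusted p = 0.0256), while DC2 cells had 15.3 and 16 CPM. Its exons overlap another gene over 26.8% of their length.

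Lysosomal proteases and enzymes gave 5 calls among 46 tested, all higher in DC1b, beside 0.811% of all genes, with a median log2 fold change of 0.66. Beside Ctsl these were Ctsb, which rose from 192 and 159 CPM to 933 and 1739 CPM, Ctsa from 40.1 and 20.6 CPM to 239.5 and 292 CPM, Ctso from 55.5 and 45.6 CPM to 233 and 232 CPM and Tpp1 from 5.28 and 5.01 CPM to 105 and 93.1 CPM. In each of the 5 genes both DC1b libraries were above both DC1a libraries, as they were in every gene called higher. Members of the list did not all lie on 1 side. Ppt1, a palmitoyl thioesterase, had 2827 and 2762 CPM in DC1a and 524 and 772 CPM in DC1b (adjusted p = 0.113), and Naaa, an acid amidase, had 963 and 796 CPM and 138 and 148 CPM (adjusted p = 0.0645).

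Of 94 transcription factors of dendritic cells and leukocytes tested, 6 were higher and 2 lower, beside 0.811% higher and 0.203% lower over all genes, and the median log2 fold change was 0.49. Mef2c rose from 37.9 and 36.4 CPM to 336 and 225 CPM, Klf13 from 12.9 and 12.7 CPM to 116 and 81.1 CPM and Cebpb from 3.99 and 3.89 CPM to 30.9 and 50.7 CPM. DC2 cells had values near DC1b for Mef2c, at 239.5 and 290.3 CPM, and Klf13, at 102 and 81.5 CPM, and above it for Cebpb, at 80.3 and 72.7 CPM. Irf4, a cDC2 factor, had 7.81 and 7.34 CPM in DC1a and 64.5 and 82.5 CPM in DC1b (adjusted p = 0.135), and Zeb2 had 0.846 and 5.46 CPM and 213 and 148 CPM (adjusted p = 0.0963).

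Of 23 cDC2 genes tested, 3 were called and all were higher in DC1b, beside 0.811% of all genes, with a list median of 3.37. Cd209a, a lectin, rose from 9.35 and 19.4 CPM to 405 and 981 CPM (adjusted p = 0.036), and DC2 cells had 899 and 869 CPM. S100a4 rose from 4.67 and 14.7 CPM to 262 and 345 CPM, with 798 and 622 CPM in DC2, and 51.7% of its exons overlap another gene. Clec4a4 had 0 counts in both DC1a libraries and 20.1 and 6.83 CPM in DC1b, at least 105-fold higher when DC1a is set to its floor, against 288 and 225 CPM in DC2. Clec12a, an inhibitory lectin and a member that did not pass, had 560.0 and 651 CPM and 1116 and 1461 CPM (adjusted p = 0.136), with 229.6 and 165 CPM in DC2. Cd4 had 7.53 and 1.66 CPM in DC1a and 129.8 and 150.0 CPM in DC1b (adjusted p = 0.12).

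A list of genes described for CX3CR1+ CD8+ and transitional dendritic cells, cells with features of both plasmacytoid and conventional ones, gave 6 calls among 17 tested, all higher, beside 0.811% of all genes, with a median of 3.21. It shares Ly6c2, Tcf4 and Cd209a with the lists above. The others were Ms4a4c, which rose from 11.8 and 7.78 CPM to 167 and 271 CPM, Ms4a6c, from 82.9 and 80.8 CPM to 321 and 295 CPM, and the chemokine receptor Ccr2, from 16.1 and 17.8 CPM to 118 and 121 CPM. The first 2 are close relatives in a gene cluster. Cx3cr1 itself had 0 counts in DC1a and 45.8 and 8.16 CPM in DC1b and did not pass (adjusted p = 0.0974). Lyz2 had 806 and 815 CPM and 1692 and 3008 CPM (adjusted p = 0.102).

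Of 29 genes of dendritic cell maturation tested, 2 were called, Cacnb3 and Cd86, and both were lower in DC1b, beside 0.203% of all genes. The median was -1.14, with 6 values positive and 23 negative. Cd86, a ligand of CD28 on T cells, fell from 485 and 462 CPM to 167 and 161 CPM (adjusted p = 0.047), with 700.4 and 881 CPM in DC2. Ccr7, which guides mature cells to lymph nodes, had 482 and 483 CPM in DC1a and 112 and 229 CPM in DC1b (adjusted p = 0.142), and Cd83 had 781 and 1049 CPM and 258 and 573 CPM (adjusted p = 0.325).

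Among 33 costimulation and checkpoint genes 1 was higher and 1 lower, and the counts of this paragraph stand beside 0.811% higher and 0.203% lower over all genes. The higher one was Cd244a, a SLAM family receptor, from 8.82 and 9.08 CPM to 112 and 54.1 CPM. Of 30 cytokine and chemokine genes tested, 2 were higher and 0 lower. Il12a had 0 counts in both DC1a libraries, and Ccl3 rose from 86.6 and 86.1 CPM to 265 and 369.7 CPM (adjusted p = 0.0427), below the 1280.4 and 1179 CPM of DC2. Of 34 chemokine and adhesion receptors, 3 were higher (Ccr2, Gpr183 and Cdh1) and 1 lower (Xcr1). Gpr183, a receptor for oxysterols, rose from 31.4 and 44.3 CPM to 314 and 303 CPM. Of 31 C-type lectins and Siglecs, 2 were higher (Cd209a and Clec4a4, given above) and 0 lower. Of 26 scavenger and uptake receptors, 3 were higher (Fcer1g, Cd300c and Cd300lf) and 0 lower.

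Of 43 interferon-stimulated genes tested, 2 were higher and 1 lower, beside 0.811% higher and 0.203% lower over all genes. Ifi27l2a rose from 179 and 156 CPM to 1093 and 1283 CPM and Ifi203 from 1.69 and 3.31 CPM to 118 and 167 CPM, and Ifi205 fell, as given above. Ifi203 and Ifi205 belong to a cluster of similar genes. Both chains of the type I interferon receptor, which are on no list and were picked after their values were seen, were called higher, Ifnar1 from 85.6 and 93.9 CPM to 290.0 and 292 CPM (adjusted p = 0.047) and Ifnar2 from 145 and 135 CPM to 499 and 539 CPM (adjusted p = 0.0331). Beside the same shares, of 45 genes of actin and membrane dynamics 1 was higher (Arhgdib, from 428 and 399.7 CPM to 1814 and 2114 CPM) and 3 lower (Tmsb4x, Tmsb10 and Wdfy4). Beta actin itself, Actb, had 3183 and 2625 CPM in DC1a and 1456 and 1531 CPM in DC1b (adjusted p = 0.087).

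Of 23 genes of CD1d and glycolipid presentation, 29 of the Toll-like receptor pathway and 59 of the cell cycle and DNA replication, 0 were called by edgeR. At an unadjusted p under 0.05 there were 4 higher and 3 lower, 5 higher and 4 lower, and 2 higher and 3 lower genes in these lists in turn. Of all 15785 genes tested, 1457 were higher and 1234 lower at that p. Psap, the precursor of the saposins that load lipids, had 459.7 and 415 CPM in DC1a and 299 and 391 CPM in DC1b (adjusted p = 0.52). Unc93b1, which carries nucleic acid sensing receptors to endosomes, had 129 and 116 CPM and 173 and 251 CPM (adjusted p = 0.26). Cd180, a relative of the receptor for endotoxin, had 111 and 109.8 CPM and 118 and 109.8 CPM (adjusted p = 0.95). Hmgb2, a chromatin protein of dividing cells, had 640.2 and 766 CPM and 556 and 403 CPM (adjusted p = 0.316). Cd1d1, which presents glycolipids, had 172 and 151 CPM in DC1a and 74.7 and 62.3 CPM in DC1b (log2 fold change -1.24 ± 0.32 SE, adjusted p = 0.154).

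**Figure D4:**
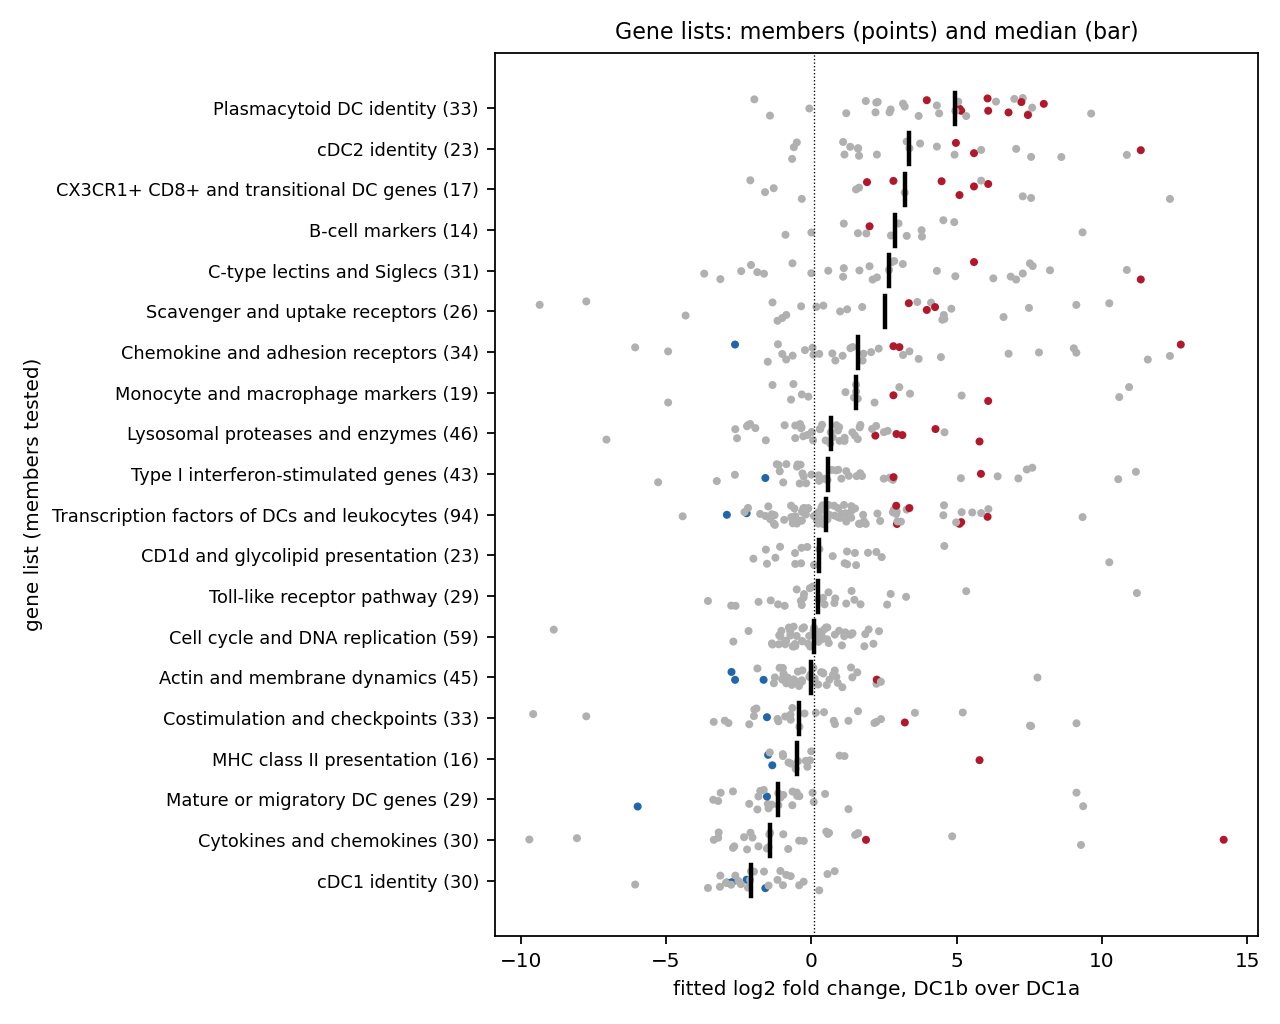
Fitted log2 fold change of DC1b over DC1a for the members of gene lists with at least 10 members tested, the number tested in parentheses. The genes of the sort and of proteins the study examined are not shown as a list. Red and blue points were called higher and lower, grey points were not called, black bars are list medians and the dotted line is the median of all genes, 0.08. The plasmacytoid DC list has the highest median, 4.95, and the cDC1 list the lowest, -2.09.

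Among genes of the sort and of proteins the study examined, Itgae (CD103) had 40.8 and 28.8 CPM in DC1a and 0 and 1.02 CPM in DC1b (adjusted p = 0.284). Timd4 (TIM-4) was under 2 CPM in DC1a and at 0 counts in DC1b. Cd207 (langerin) had 963 and 827 CPM and 166 and 169 CPM (adjusted p = 0.203), Ly75 (DEC205) 115 and 155 CPM and 17.2 and 46.7 CPM (adjusted p = 0.161), Cd24a 371 and 272 CPM and 50.8 and 112 CPM (adjusted p = 0.564) and Ly6d 9.06 and 31.3 CPM and 132 and 241 CPM (adjusted p = 0.186). In each of these except Ly6d, DC1b was the lower population in both pools, and none passed. Of the 28 genes of this group 4 were called, 1 higher and 3 lower, beside 0.811% higher and 0.203% lower over all genes. Cdh1 (E-cadherin) was higher, with 0 counts in DC1a, and Xcr1, Batf3 and H2-Ab1 were lower. The other 13, Havcr2, Cd40, Btla, Cd274, Treml4, Ptprc, Itgam, Pdcd1lg2, Clec9a, H2-Aa, Irf4, Irf8 and Cd4, had adjusted p-values from 0.0632 (Clec9a) to 0.876 (Irf8).

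Transcripts of cells other than dendritic cells were counted in the same libraries. Of 16 B-cell markers, 14 were tested and 1, Ighm, was called (all genes, 0.811% higher), rising from 309 and 253 CPM to 959 and 1290.5 CPM (adjusted p = 0.0431). Their sum was 2026 and 1190.2 CPM in DC1a and 6447 and 4230.0 CPM in DC1b. Most of it was Igkc, at 1683 and 883 CPM and 5254 and 2524 CPM. Cd79b had 0.242 and 5.14 CPM and 73.3 and 89.1 CPM, and Pax5, a defining factor of B cells, was under 1 CPM in all 4 libraries. Ms4a1, the CD20 gene, had 18.9 and 12.3 CPM in DC1a and 16.8 and 0 CPM in DC1b. Fcrla had 3.85 and 12.9 CPM in DC1a and 59.7 and 178 CPM in DC1b, scaled over all 23 libraries. The B-cell list had a median log2 fold change of 2.87, with 12 values positive and 1 negative. By edgeR, 7 of its genes were higher and 0 lower at an unadjusted p under 0.05. Both DC1b libraries were above both DC1a libraries for 10 of the 14, beside 25.9% of all genes. Of 20 monocyte and macrophage markers, 19 were tested, and Ly6c2 and Ccr2 were called. Both of these are also members of lists above, and both are part of the sum. That sum was 1499 and 1386 CPM in DC1a and 4018 and 7073 CPM in DC1b. The median log2 fold change of this list was 1.54, with 13 values positive and 6 negative. The sums of 16 T-cell markers were 4.87 and 6.35 CPM and 47.1 and 80.9 CPM, of 12 natural killer cell markers 132 and 192 CPM and 346 and 393 CPM, of 12 neutrophil markers 3.75 and 0.179 CPM and 20.5 and 1.1 CPM and of 12 erythroid and platelet markers 1767 and 154 CPM and 90.1 and 126 CPM, with 0 calls by edgeR in these 4 lists and 5 higher and 1 lower genes at an unadjusted p under 0.05. The T-cell, natural killer cell, neutrophil and erythroid lists had 7, 3, 4 and 7 genes tested. Of all 15785 genes tested, 1457 were higher and 1234 lower at that unadjusted p. Most of the natural killer cell sum was Klrk1. It had 102 and 154 CPM in DC1a and 316 and 348 CPM in DC1b, scaled over all 23 libraries. The 3 natural killer cell genes tested had a median log2 fold change of -0.28, with 1 value positive and 2 negative. The part of other cells in the differences above was not tested.

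The same comparison was available in TLI mice, 4 pools with a library of DC1a and of DC1b each. It was fitted with all 23 libraries and a term for batch. These also include DC2 cells and DC3 cells, labelled CD8- CD172lo. All untreated libraries and TLI pools 1 and 2 were assigned to batch 1, and TLI pools 3 and 4 to batch 2. The batch term was thus estimated from TLI pools alone. There 239 genes were higher in DC1b (1.22% of 19597 tested) and 40 lower (0.204%). Transcripts of other cells were counted in these libraries as well. Summed neutrophil markers were at 23426, 1527, 1927 and 10235 CPM in TLI DC1b pools 1 to 4 and at 7.73, 15.2, 13.4 and 7.63 CPM in TLI DC1a, and 2 of the 4 tested were called higher. Summed monocyte and macrophage markers were at 25903, 29454, 10808 and 9589 CPM and 2488, 2899.5, 969 and 827 CPM, with 9 of 19 called higher and a median log2 fold change of 3.48. Summed B-cell markers were at 32367, 7303, 49842 and 44767 CPM and 8741, 1284, 1296 and 4733 CPM, and summed erythroid and platelet markers at 69926, 24418, 2221 and 7958 CPM and 131895, 25984, 401 and 173 CPM. The neutrophil, monocyte and B-cell sums were thus higher in DC1b in each TLI pool, and the erythroid sum was highest in pool 1 of both populations. Their part in the TLI differences was not tested. Of the 160 genes called in untreated mice, 63 were called in the same direction in TLI mice and 0 in the opposite direction. These are 39.4% of the untreated calls and 22.6% of the 279 TLI calls. Of the 128 higher genes, 115 were positive and 55 called in TLI mice, and of the 32 lower genes, 30 were negative and 8 called. Their differences were mostly smaller. The median log2 fold change of the higher genes was 4.26 in untreated and 2.24 in TLI mice, and that of the lower genes -2.21 and -0.86. The genes were chosen for their untreated values, and the part of that choice in the smaller values was not tested.

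**Figure D5:**
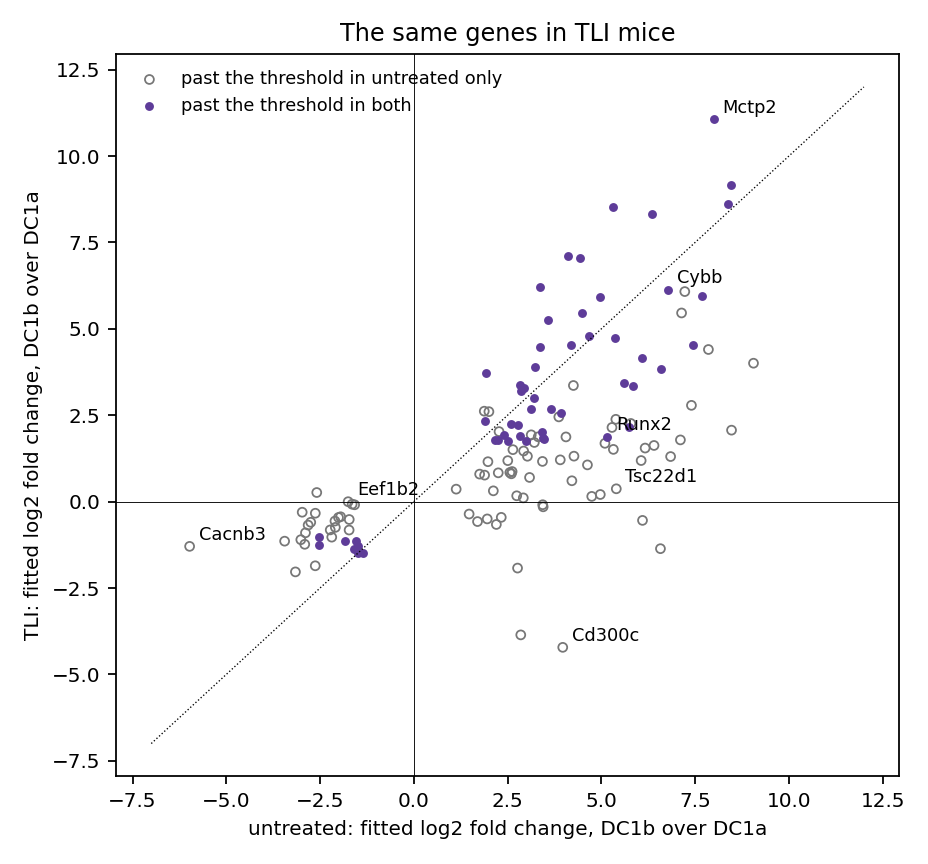
Fitted log2 fold change of DC1b over DC1a in untreated mice (horizontal axis) and in TLI mice (vertical axis) for the 137 well expressed genes called in untreated mice. Filled points were also called in TLI mice (53 genes) and open points were not. Of the 137 genes, 111 had the smaller fold change in TLI mice, and 13 had the opposite sign there.

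Cybb, Fcer1g and Ly6c2 kept large differences in TLI mice, with log2 fold changes of 6.14, 4.49 and 4.15 (adjusted p = 2.46e-05, 1.34e-07 and 8.47e-05). Cst3, H2-Ab1 and H2-Eb1 were lower there too, at -1.04, -1.49 and -1.48 (adjusted p = 0.00261, 0.0108 and 0.00363). Among plasmacytoid DC factors Runx2 was called in TLI mice, at 1.87 (adjusted p = 0.0425). In TLI DC1b cells Tcf4 had 71.6, 47.5, 33.6 and 25.9 CPM in pools 1 to 4, against 17.2, 10.3, 9.46 and 18.5 CPM in TLI DC1a cells, all above them and all below the untreated DC1b values of 868 and 465 CPM on the same scale. Spib had 17.7, 0.49, 0 and 0.165 CPM in TLI DC1b and 2.71, 0, 1.51 and 1.26 CPM in TLI DC1a cells, so that 1 pool alone was above the DC1a values. Tcf4, at 1.69, and Spib, at 1.19, were not (adjusted p = 0.0677 and 0.833). The plasmacytoid DC list had a median of 1.69 in TLI mice, with 7 of its 33 genes called higher and 0 lower. The cDC1 list had one of -1.55, with 4 of 30 called lower and 0 higher. Of all genes, 1.22% were called higher and 0.204% lower there. The median TLI value over the 15785 genes tested in untreated mice was -0.019. All TLI values are on the scale of the fit of 23 libraries. The difference between TLI and untreated mice was itself tested gene by gene, and 7 genes passed (0.0357% of 19597). Without any 1 untreated library 0 or 1 passed, and with no term for batch or in batch 1 alone 0 did. Tsc22d1 and Eef1b2 are the members of the 160 among them, and both were close to no difference in TLI mice, with log2 fold changes of 0.37 (Tsc22d1) and -0.0016 (Eef1b2).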

How the data were processed

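Libraries were made from SMART-seq v4 cDNA of sorted cells. The authors trimmed reads with Trimmomatic, aligned them to GRCm38 with HISAT2 and derived counts with StringTie. The deposited values are estimated counts per gene, whole numbers computed from read coverage and not normalized. Whether counting used strand is not given in the sources used here. Symbols and positions come from GENCODE M21, and promoter windows from RefSeq on GRCm38.

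DC1b was compared with DC1a by edgeR 4.0.16 (R 4.3.3; glmQLFit and glmQLFTest, TMM, filterByExpr) with Benjamini-Hochberg adjustment at 0.05, in a fit of the 6 untreated DC1a, DC1b and DC2 libraries. TLI libraries and the interaction were fitted with all 23 libraries and batch. DESeq2 1.42.0, size factors, filters, libraries, the block and left-out replicates were alternatives. The code was tested on simulated data.

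Named genes were the 12 largest increases and decreases and the 10 of highest level among called genes with over 3 counts in each library and a mean of at least 20 CPM, the genes of the sort and of proteins the study examined, and of each list the called members and up to 3 further ones of highest level. Outside this rule, Bcl11a, Cadm1, Cx3cr1, Ifnar1, Ifnar2, Irf7, Ly6c1, Ms4a1, Pax5, Tlr9 and Zeb2 were named after their values were seen. Members and lists were chosen with earlier results of these data known. Pool numbers mark the same pool of mice and so pair the samples. The correlation of the deviations of same-numbered DC1a and DC1b samples was 0.0058 over 15785 genes.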

Additional observations from a re-analysis of the deposited data

Results flagged for a closer look

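In 48 groups of 4 to 10 samples examined, a sample of TLI DC1a cells stood apart from the other 3 in 6 (Dixon's test at 95%). Chance flags about 1 in 20 groups of continuous values, but 3 libraries at 0 counts flag any value in the fourth, as for Cox6a2 and A530030E21Rik, so the number flagged is not compared with chance. Igkv1-110 was at 68.8 CPM in pool 3 (0.769, 1.07, 68.8 and 0.291 CPM in pools 1 to 4). Tmem108 was at 0.607 CPM in pool 1 (0.607, 0, 0.0643 and 0 CPM). Cmah was at 5.75 CPM in pool 1 (5.75, 0.395, 0 and 0 CPM). Cox6a2 was at 0.566 CPM in pool 1 (0.566, 0, 0 and 0 CPM). A530030E21Rik was at 0.097 CPM in pool 4 (0, 0, 0 and 0.097 CPM). Aph1c was at 175 CPM in pool 2 (127, 175, 124 and 129 CPM). These levels are on the scale of the 23 libraries.

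The DC1b minus DC1a difference itself differed between TLI and untreated mice for 7 genes, by the interaction term of edgeR's quasi-likelihood test (adjusted p = 0.04 for each, with Benjamini-Hochberg adjustment). The log2 difference of TLI minus untreated was -5.08 for Tsc22d1, a gene called higher in untreated DC1b cells, and 1.70 for Eef1b2, a gene called lower there. It was 2.26 for Ccl6, 4.76 for Wfdc17, 2.90 for Bcl6, 1.98 for Ifitm2 and 2.44 for Lyz2, none of them called in untreated mice. Lyz2, which encodes lysozyme, had 20232, 24122, 8631 and 7647 CPM in TLI DC1b pools 1 to 4 and 1360.1, 1453, 535 and 435 CPM in TLI DC1a, against 1633 and 2819 CPM in untreated DC1b. All 4 TLI DC1b libraries were above both untreated ones. S100a8, a neutrophil gene, had 5090.1, 276, 1125 and 5549 CPM in TLI DC1b and 1.94, 1.7, 4.05 and 3.85 CPM in TLI DC1a, against 4.66 and 0.462 CPM in untreated DC1b, and C1qb, a macrophage gene, had 622, 505, 23.6 and 0 CPM, 8.66, 6.36, 4.41 and 0 CPM and 12.1 and 3.34 CPM in the same order. Their part in the 7 differences was not tested.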

How the results depend on the processing

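All 160 called genes kept their direction in each alternative that tested them, but their number depended on the setting. DESeq2 called 1879 genes (1103 higher, 776 lower, or 58.7% higher against 80% as reported), 1112 of them well expressed, with 211 members of the gene lists against 45. Without a filter on low counts there were 373 (257 higher, 116 lower), 294 well expressed and 90 list members. With at least 10 counts in every library there were 353 (216 higher, 137 lower), 334 well expressed and 77 list members, and 127 of the 160 could be tested and all 127 were called. With DC3 added there were 185 calls, 58 of them lower, and 127 of the 160 genes stayed called. With all 23 libraries and a batch term there were 164, 62 of them lower, and only 87 of the 160 stayed called. The highest adjusted p among the 160 was 0.218 with DC3 and 0.62 with all 23 libraries. With only the 4 libraries, with the pool as a replicate block, and without each replicate in turn (0 to 0), there were 0 calls, higher, lower, well expressed or in the lists. The lowest adjusted p was 0.0547 with the 4 libraries, 0.0727 with the block and 0.0852 to 0.163 without a replicate, where the lone sample is assumed to vary like the other groups. The cause was not tested.

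In TLI mice the 279 calls became 1478 with DESeq2, 169 with no term for batch and 71 in batch 1 alone. The 7 genes of the interaction became 494 with DESeq2, 19 with at least 10 counts, 0 with no batch term, 0 in batch 1 and 0 to 1 without a replicate of untreated cells, and 6 with the replicate block. Of the values for single genes, 625 stayed on the same side of the threshold, 493 lost and 22 gained their call. The smallest differences are limited by 2 libraries a population and a biological coefficient of variation of 0.868.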
